A study of Mus musculus with 6 samples.

Results

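Genes of MHC class II antigen presentation and of dendritic cells were followed in lineage-negative bone marrow on arrays of B.D(Chr5) and C57B/L6 mice. The genes were chosen by name and not by their values in this comparison, though with earlier results of these data known. They are the class II chains H2-Aa, H2-Ab1 and H2-Eb1 and the chaperone and loading genes Cd74, H2-DMa and H2-DMb1. The others are the transactivator Ciita and the surface genes Siglech, Itgax and Cd209a. The 10 symbols matched 19 of the 45037 probe sets on the array that are not controls. The study compared 3 B.D(Chr5) samples with 3 C57B/L6 samples, 1 array each, all from adult females aged 6 to 16 weeks. The label of the B.D(Chr5) strain names chromosome 5, its genetic background is given as B.D, and the donor strain is not spelled out. Cells of both strains had been enriched for stem and progenitor cells by removing those with lineage markers. The labels do not say whether a replicate was a single mouse or several pooled. The p-values therefore describe the spread of these 6 samples, some of which may be technical.

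Class II molecules hold peptides from engulfed proteins at the surface of dendritic cells, B cells and macrophages, where CD4 T cells read them. Their alpha and beta chains are assembled in the endoplasmic reticulum on the invariant chain, the product of Cd74, and the H2-DM dimer later exchanges a remnant of that chain for peptide. Transcription of these genes depends on the transactivator CIITA, which is recruited to promoters by factors bound to short elements named X and Y boxes. In bone marrow, dendritic cells arise from progenitors that lack lineage markers, and B cell precursors gain class II as they mature.

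The promoter windows of the class II genes are shown first, as a description. Whether X and Y boxes have a part in the variation of these genes over the arrays was not tested. RefSeq windows of GRCm38.p6, from 250 bases before to 50 bases after the annotated start, were found for 7 of the 10 genes. Both strands were searched for the letters TGATTGG, the core of the Y box, and AGNAACTGATG for the X box. The X box letters are those that the windows of H2-Eb1 and H2-DMb1 share over 11 bases, with N where they differ, so these 2 windows match by construction. The motifs do not overlap in the windows below. Capitals mark the matches, and each sequence runs 5′ to 3′ on the strand of its gene. The window of H2-Aa, at chr17:34287774-34288073 on the minus strand, has a Y box that begins 50 bases before the start:
H2-Aa: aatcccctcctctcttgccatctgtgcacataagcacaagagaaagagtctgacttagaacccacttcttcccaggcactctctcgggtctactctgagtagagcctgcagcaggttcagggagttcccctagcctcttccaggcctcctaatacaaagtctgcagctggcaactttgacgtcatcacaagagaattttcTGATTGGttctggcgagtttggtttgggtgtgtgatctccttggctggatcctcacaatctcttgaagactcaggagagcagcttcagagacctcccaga
The window of H2-Eb1, at chr17:34305617-34305916 on the plus strand, has an X box 92 bases and a Y box 61 bases before the start:
H2-Eb1: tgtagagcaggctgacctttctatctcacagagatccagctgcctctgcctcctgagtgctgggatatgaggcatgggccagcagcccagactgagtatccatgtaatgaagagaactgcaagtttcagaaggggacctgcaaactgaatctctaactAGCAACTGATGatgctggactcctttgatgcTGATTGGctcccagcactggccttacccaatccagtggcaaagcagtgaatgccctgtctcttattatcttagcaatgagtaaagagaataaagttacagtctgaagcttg
The window of H2-DMb1, at chr17:34152941-34153240 on the plus strand, has an X box 95 bases and a Y box 63 bases before the start:
H2-DMb1: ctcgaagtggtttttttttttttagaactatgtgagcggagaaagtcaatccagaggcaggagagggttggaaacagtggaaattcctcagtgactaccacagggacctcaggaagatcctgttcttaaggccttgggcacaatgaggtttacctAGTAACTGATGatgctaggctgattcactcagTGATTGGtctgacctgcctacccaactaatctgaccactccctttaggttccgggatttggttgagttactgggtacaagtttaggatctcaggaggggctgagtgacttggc
Of 32544 distinct promoter windows of this length, 7.80% held the Y box letters, 0.154% held the X box letters and 7 windows held both. Windows of H2-DMa, Siglech, Itgax and Cd209a held neither set of letters. For H2-DMa these were 2 windows, at chr17:34122582-34122881 and chr17:34125268-34125567, and whether they cover the promoter in use was not tested. Only exact letters were searched, so a window without a match may still hold an X or Y box of other letters.

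Values are MAS5 signals, a summary of the probes of a probe set on a linear scale, which the values show to have been scaled to the same trimmed mean of 500 on each array. Background was taken as the level that 95% of the 27 bacterial control probe sets did not exceed, and it lay between 21.8 and 38.0, and the median signal of an array between 65.0 and 79.5. As markers of the labelled cells, the stem and progenitor gene Kit averaged 4559 ± 860.2 in B.D(Chr5) and 4925 ± 643 in C57B/L6, and Cd34 averaged 3527 ± 376 in B.D(Chr5) and 3933 ± 501 in C57B/L6 (SD, n = 3 each). Among macrophage genes, C1qa and Marco lay below background on all 6 arrays, while Mrc1 and 1 probe set of C1qb lay above it on all 6. The strains were compared on log2(signal + 16) with limma over the 22519 brightest probe sets, the upper 50% by mean over all arrays. Of the 19 probe sets, 15 passed that filter and covered 9 of the 10 genes, while 3 probe sets of Ciita and 1 of H2-Aa did not.

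The class II and dendritic cell genes did not separate the strains. Of the 15 tested probe sets, 0 passed a limma adjusted p of 0.05, where 0.182% of all tested probe sets did, and 1 had an unadjusted p under 0.05, where 4.72% of all did. Log2 changes (B.D(Chr5) minus C57B/L6) were positive for 7 and negative for 8 probe sets, with a median of -0.02 against a median of 0.00035 over all tested probe sets. The median was 0.11 when each gene was taken at its brightest probe set, so its sign depends on which probe sets are counted. They ran from -0.52 to 0.41. The 3 arrays of one strain lay apart from the 3 of the other for 1 of the 15, where 9.38% of all tested probe sets did. In that 1 case B.D(Chr5) was the lower strain, as it was for 5.24% of all. The 95% confidence intervals lay within a change of 1 on the log2 scale in either direction for 14 of the 15, the exception being an H2-Aa probe set ending in _s_at whose interval reached -1.06. A p above the threshold does not show that the strains have equal levels, and 3 arrays per strain limit the precision.

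Among the class II chains, H2-Aa encodes the alpha chain of the I-A molecule. Its brightest probe set read 801, 686 and 1226 in B.D(Chr5), against 682, 1178 and 1004 in C57B/L6. Each strain held both low and high arrays, and the ranges overlapped almost fully. Its log2 change was -0.08 (SE 0.24, limma adjusted p = 1.00). The H2-Aa probe set ending in _s_at read 211, 131 and 361 in B.D(Chr5) and 194, 346 and 311 in C57B/L6, with a log2 change of -0.33. A further one read 420, 345 and 440.2 in B.D(Chr5) and 456, 410 and 384 in C57B/L6, and followed the brightest only loosely over the arrays (r = 0.23). The untested H2-Aa probe set was above background on 2 of the 6 arrays.

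H2-Ab1 encodes the beta chain that pairs with H2-Aa. Its brightest probe set had signals of 512, 586 and 717 in B.D(Chr5) and of 388, 653 and 579.6 in C57B/L6. C57B/L6 replicate 1 was the lowest and B.D(Chr5) replicate 3 the highest, and its log2 change was 0.18 (SE 0.20, limma adjusted p = 1.00). A second H2-Ab1 probe set averaged 315 ± 70.5 in B.D(Chr5) and 235 ± 59.8 in C57B/L6 (SD, n = 3 each), the highest log2 change of the 15 at 0.41 with an interval from -0.09 to 0.90. The third, at 198 ± 81.9 in B.D(Chr5) and 183 ± 36.5 in C57B/L6 (SD, n = 3 each), had a log2 change of 0.05.

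H2-Eb1 encodes the beta chain of the I-E molecule and was read by 1 probe set. Its signals were 312, 239.8 and 443 in B.D(Chr5), against 265, 383 and 390.1 in C57B/L6. The strains overlapped, with both the highest and the lowest array in B.D(Chr5). For H2-Eb1 the log2 change was -0.08 (SE 0.23, limma adjusted p = 1.00).

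The partner of H2-Eb1 is the alpha chain encoded by H2-Ea. C57BL/6 mice do not transcribe H2-Ea because the promoter is deleted, whereas mice of some other class II haplotypes do. The 3 probe sets of H2-Ea ranged from 1.26 to 25.1 over the arrays, and 1 of 18 values lay above the background of its array. That value, 25.1, belonged to C57B/L6 replicate 2. On the H2-Ea probe set with the highest mean, the signals were 16.0, 13.3 and 24.9 in B.D(Chr5) and 16.4, 16.2 and 20.7 in C57B/L6. H2-Ea was not detected above background in any B.D(Chr5) array.

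Cd74, which encodes the invariant chain, had signals of 1508, 1173 and 2368 in B.D(Chr5) and of 948, 1614 and 1538 in C57B/L6. B.D(Chr5) replicate 3 was the highest and C57B/L6 replicate 1 the lowest, and between them the other B.D(Chr5) arrays lay below the other C57B/L6 arrays. Cd74 had a log2 change of 0.27 (SE 0.26, limma adjusted p = 1.00), which was -0.00068 without B.D(Chr5) replicate 3.

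H2-DMa encodes the alpha chain of the peptide exchange factor H2-DM. Its bright probe set read 3366, 2709 and 3169 in B.D(Chr5), against 2618, 3699 and 3459 in C57B/L6, a log2 change of -0.07 (SE 0.13, limma adjusted p = 1.00). Its dim probe set read 146, 160.2 and 113 in B.D(Chr5), against 181, 223 and 212 in C57B/L6. On this probe set the strains did not overlap, and it had a log2 change of -0.52 (SE 0.19, limma unadjusted p = 0.0204, adjusted p = 0.905). The bright and dim probe sets of H2-DMa had little in common over the arrays (r = 0.29), and the bright one overlapped between strains.

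The beta chain of H2-DM comes from H2-DMb1 and its close relative H2-DMb2, and both probe sets that name H2-DMb1 also name H2-DMb2, so the genes cannot be told apart there. The brighter shared probe set had signals of 779.5, 519 and 903 in B.D(Chr5) and of 454, 831 and 769.9 in C57B/L6, a log2 change of 0.11 (SE 0.25, limma adjusted p = 1.00). The lowest array of each strain lay well below its other arrays. The dimmer one had a log2 change of -0.02 and followed it over the arrays (r = 0.96). The 3 tested probe sets of H2-DMb2 alone had log2 changes between -0.15 and 0.0016.

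Ciita, the transactivator of the class II genes, was dim. Its brightest probe set read 55.5, 62.2 and 52.7 in B.D(Chr5) and 56.9, 40.1 and 67.9 in C57B/L6, above background on all 6 arrays but under the filter. The other Ciita probe sets were above background on 1 and 0 of the 6 arrays. Strain values of Ciita overlapped on its 3 probe sets, and no test was made on them.

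Siglech, a receptor of plasmacytoid dendritic cells, read 476, 335 and 524 in B.D(Chr5), against 328, 527 and 338 in C57B/L6, a log2 change of 0.17 (SE 0.22, limma adjusted p = 1.00). Itgax, which encodes the integrin CD11c of dendritic cells, read 409, 425 and 691 in B.D(Chr5), against 346, 671 and 704 in C57B/L6, a log2 change of -0.14 (SE 0.28, limma adjusted p = 1.00). Cd209a, a C-type lectin of monocyte-derived dendritic cells, read 548, 413 and 655 in B.D(Chr5), against 318, 630.1 and 578 in C57B/L6, a log2 change of 0.11 (SE 0.25, limma adjusted p = 1.00). For all 3 genes the arrays of the strains overlapped, and the spread within a strain was wider than the difference between means. In a bulk sample, fewer dendritic cells and less RNA per cell cannot be told apart.

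**Figure D1:**
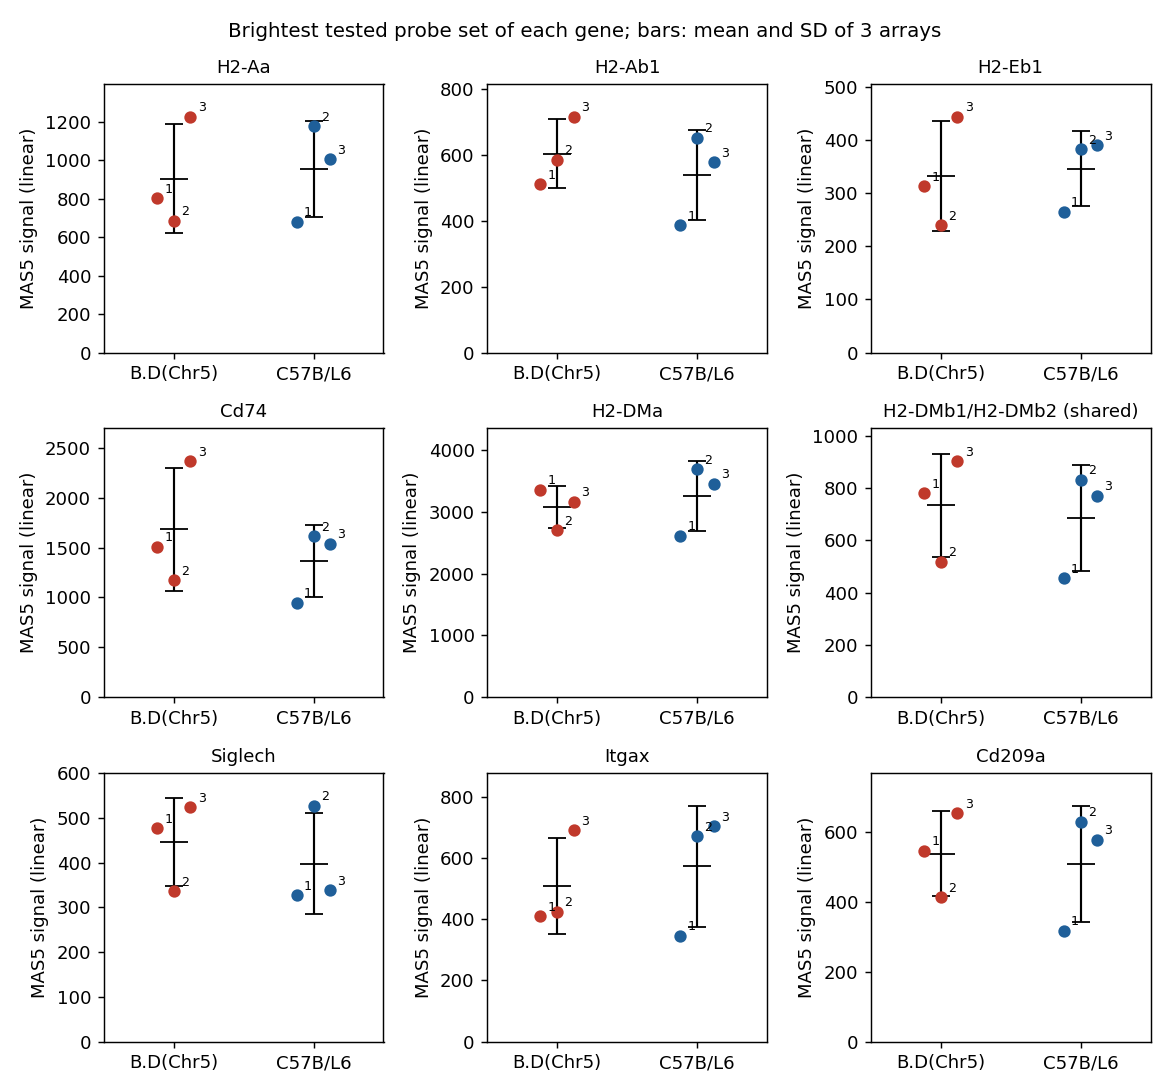
MAS5 signal on a linear scale (vertical axes from 0) of the brightest tested probe set of 9 genes, 1 dot per array numbered by replicate, for B.D(Chr5) and C57B/L6; bars give the mean and SD of 3 arrays. The strains overlap in all 9 panels, and replicate 2 of B.D(Chr5) and replicate 1 of C57B/L6 are often the lowest.

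The variation of these genes ran between arrays within each strain. The highest array was a median of 1.98-fold above the lowest over the 15 tested probe sets, against 1.40-fold over all tested probe sets. The difference between strains held a median of 3.79% of the sum of squares of the log2 values of the 15, against 10.7% for all tested probe sets. The lowest array was replicate 2 of B.D(Chr5) or replicate 1 of C57B/L6 for 14 of the 15 probe sets, and for 14 the highest was replicate 3 of B.D(Chr5) or one of replicates 2 and 3 of C57B/L6. B.D(Chr5) replicate 3 alone was the highest for 9, and C57B/L6 replicate 1 alone the lowest for 10. The dim probe set of H2-DMa went its own way, lowest on B.D(Chr5) replicate 3. The H2-Aa probe set that followed its brightest only loosely also departed from this order. It was lowest on B.D(Chr5) replicate 2, at 345, but highest on C57B/L6 replicate 1, at 456.

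Every pair of the 9 genes correlated positively over the 6 arrays on their brightest probe sets. Over the 36 pairs, Pearson's r ran from 0.46 to 0.98 with a mean of 0.80, whereas the mean r over all pairs of tested probe sets was 0.0013. With each strain centred on its own mean, the mean r of the 36 pairs was 0.84. In exact permutation tests over the 720 orders of the arrays, two-sided, 22 pairs had a Pearson p under 0.05 and 5 passed after Benjamini-Hochberg adjustment over the 36. By Spearman's rho 13 had an exact permutation p under 0.05 and 3 passed after adjustment.

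The strongest pair was Cd209a with the shared H2-DMb1 and H2-DMb2 probe set (r = 0.98, exact permutation p = 0.0028, adjusted 0.025; rho = 0.94, exact permutation p = 0.0167, adjusted 0.0857). Cd74 correlated with Cd209a (r = 0.92, exact permutation p = 0.0014, adjusted 0.025; rho = 1.00, exact permutation p = 0.0028, adjusted 0.0333). The same ranking of the 6 arrays was shared by H2-Aa, whose r was 0.88 with Cd74 (exact permutation p = 0.0014, adjusted 0.025) and 0.89 with Cd209a (exact permutation p = 0.0042, adjusted 0.03). Cd74 also followed the shared H2-DMb1 and H2-DMb2 probe set (r = 0.93, exact permutation p = 0.0028, adjusted 0.025). Without the 2 arrays farthest from the median of the first gene, r was between 0.86 and 1.00 for these 5 pairs. Over all 36 pairs the mean r was then 0.51 and 31 were positive, and pairs moved in both directions. H2-DMa had r = -0.44 with the shared H2-DMb1 and H2-DMb2 probe set without those arrays, against 0.88 with all 6, so that relation rests on them. H2-DMa with H2-Aa had r = 0.90 without them, against 0.77 with all 6. Siglech and Itgax were the loosest pair (r = 0.46, exact permutation p = 0.253, adjusted 0.253).

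**Figure D2:**
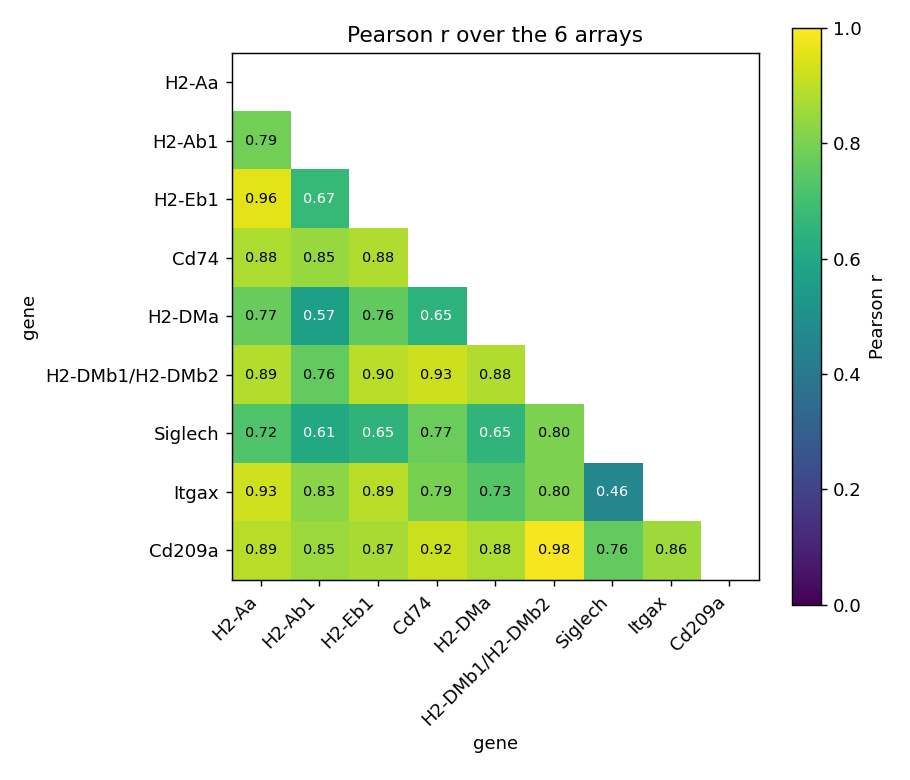
Pearson r of log2(signal + 16) over the 6 arrays for each pair of the 9 tested genes, brightest probe set of each, coloured from 0 to 1. All 36 values are positive, from 0.46 for Siglech with Itgax to 0.98 for Cd209a with the shared H2-DMb1 and H2-DMb2 probe set.

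Other genes of the pathway took part in the same ordering of the arrays to differing degrees. As a yardstick, the mean log2 value of H2-Aa, H2-Ab1, H2-Eb1 and Cd74 was taken on each array, and likeness to it was measured by Pearson's r over the 6 arrays, as a description. Ctss, the protease that trims the invariant chain, had an r of 0.93, with signals of 4894, 3764 and 5409.7 in B.D(Chr5) and of 3519, 5215 and 5059 in C57B/L6. Marchf1, which marks class II for removal from the surface, had 0.89. Ctsl, another lysosomal protease, had -0.03, and H2-Oa, the partner of H2-Ob, had 0.44. The 8 tested other class II and peptide loading genes had a median r of 0.88, and 0 of them passed the limma threshold between strains, with 0 at an unadjusted p under 0.05 on any probe set. In this and the following lists, directions, medians and r take each gene at its brightest probe set, and a gene counts as passing or as having an unadjusted p under 0.05 if any of its probe sets does. Their log2 changes had a median of 0.03, with Marchf1 at -0.16 and 0.23 on its 2 probe sets and H2-Ob, part of the dimer that restrains H2-DM, at -0.07.

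The transcription factors of the class II promoters differed among themselves in likeness to the yardstick. The 7 genes of the RFX, NF-Y and CREB1 factors had a median r of -0.11, with Nfyb and Creb1 at 0.73 each and Rfxank and Rfxap at -0.74 and -0.75. On dimmer probe sets Nfyb had -0.39 and Creb1 ran from -0.38 to 0.48, so the r of these genes depended on the probe set. Those of Rfxank and Rfxap stayed negative, from -0.63 to -0.13. For these factors 0 of 7 passed the limma threshold, with 0 at an unadjusted p under 0.05. The smallest p belonged to Rfx5, an X box factor, at 1019, 912 and 830.3 in B.D(Chr5), against 1034, 1028 and 1031 in C57B/L6. Its strains did not overlap, but the log2 change of -0.17 (SE 0.10) did not pass (limma adjusted p = 1.00). Nfyc, a Y box factor, had a log2 change of -0.11. The list of class I and other genes of the region had 9 tested genes, of which B2m lies outside the region on chromosome 2. Their median r to the yardstick was 0.03, in a range from -0.81 for the peptide transporter gene Tap2 to 0.77 for the immunoproteasome gene Psmb8. They had a median log2 change of 0.03, and 0 that passed or had an unadjusted p under 0.05 on limma. H2-K1 and H2-D1, the classical class I chains, had their smallest p on probe sets with log2 changes of -0.26 and -0.31 and lay at 0.07 and 0.03 on their brightest.

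Markers of the cell types that carry class II were read on the same arrays. The 8 tested B cell genes stood out on B.D(Chr5) replicate 3, where their mean log2 deviation from the 6-array mean was 1.00, against values from -0.47 to -0.07 on the other 5 arrays. Summed signals of these B cell genes were 3956, 3383 and 8213 in B.D(Chr5) and 2875, 3697 and 3771 in C57B/L6. Ms4a1, which encodes the B cell antigen CD20, read 304, 224 and 1113 in B.D(Chr5), against 164, 206 and 261 in C57B/L6, and Cd79a, a chain of the B cell receptor, read 655, 454 and 1088 in B.D(Chr5), against 364, 477 and 438 in C57B/L6. All 8 had log2 changes above 0, the median being 0.40, and 0 passed limma, with 1 (Cd79a) at an unadjusted p under 0.05. Of the untested B cell genes, Cr2 was above background on 2 of 6 arrays, both of C57B/L6. Fcer2a was above it on 3 with its brighter probe set, among them B.D(Chr5) replicate 3 with a signal of 82.1. Pax5 fell under the filter on both probe sets, which were above background on 6 and 2 of the 6 arrays. Without B.D(Chr5) replicate 3, the mean r of the 36 pairs of class II and dendritic cell genes was 0.79, against 0.80 with all arrays. The part of the B cell genes in the high class II signals of that array was not tested. Over the 6 arrays the 8 B cell genes had a median r of 0.79 to the class II yardstick, from 0.67 to 0.93. Of the lists that follow, the median was 0.67 for monocyte and macrophage genes. It was 0.60 for conventional and 0.51 for plasmacytoid dendritic cell genes. The B cell genes had the highest median of these cell type lists, but a median over single genes does not rank the list means. The mean log2 deviation of the B cell list was -0.12 and -0.08 on C57B/L6 replicates 2 and 3. On these arrays the mean log2 deviation of H2-Aa, H2-Ab1, H2-Eb1 and Cd74 was 0.23 and 0.12.

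Other dendritic cell genes were read from a list for each type of dendritic cell. Of 14 tested genes of plasmacytoid dendritic cells, 7 had positive and 7 negative log2 changes, with a median of -0.0034. On limma 0 passed and 3 genes had an unadjusted p under 0.05 on at least 1 probe set, where 4.72% of all tested probe sets did. Some of these genes have several probe sets, so the gene count and that share are not on the same footing. Irf7, the interferon response factor, averaged 497 ± 16.6 in B.D(Chr5) and 361 ± 51.8 in C57B/L6 (SD, n = 3 each), a log2 change of 0.45 (limma adjusted p = 0.701). Tcf4, the factor that drives this lineage, had 1 of its 5 probe sets at a log2 change of -0.29 (limma adjusted p = 0.846). Ly6d, a marker of lymphoid and plasmacytoid precursors, had the highest r of the list to the class II yardstick at 0.97, with signals of 921, 816 and 1500.5 in B.D(Chr5) and of 699, 1079.9 and 967 in C57B/L6.

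Of 12 tested genes of conventional dendritic cells, 8 had log2 changes above 0, the median of the list was 0.03, and on limma 0 passed and 3 had an unadjusted p under 0.05 on at least 1 probe set. Irf4, a factor of dendritic and B cells, read 160.3, 145 and 299 in B.D(Chr5), against 96.9, 96.4 and 115 in C57B/L6, a log2 change of 0.81 (limma adjusted p = 0.844). Id2, a factor that favours conventional dendritic cells, had log2 changes of -0.50, -0.38 and 0.00039 on its 3 probe sets. Irf8, needed for dendritic cell and monocyte development, had the highest r of this list to the yardstick at 0.88, and Zbtb46, a factor of conventional dendritic cells, the lowest at -0.93. Dimmer probe sets of Zbtb46 had -0.56, -0.48 and 0.23, and that of Irf8 had 0.66. Xcr1 was above background on 2 of 6 arrays. Of 9 tested monocyte and macrophage genes, 6 had log2 changes above 0, the median of the list was 0.17, 0 passed limma and 1 had an unadjusted p under 0.05 on 1 of its probe sets. That gene was Vcam1, an adhesion molecule, at 0.55 and 0.30 on its probe sets, and Adgre1, which encodes the macrophage antigen F4/80, had 0.46. Csf1r, the receptor for macrophage colony-stimulating factor, read 8792, 6271 and 9071 in B.D(Chr5) and 6141, 7938 and 7896 in C57B/L6, low on the same arrays as the class II genes. Of the 6 relatives of Cd209a, only Cd209d was bright enough to test, with a log2 change of 0.21 (limma adjusted p = 1.00).

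The residual signal of 18S ribosomal RNA on its 3′ probe set was 458, 1016 and 627 in B.D(Chr5), against 728, 439 and 507 in C57B/L6. It was highest on B.D(Chr5) replicate 2 and C57B/L6 replicate 1, the arrays on which most of the class II and dendritic cell genes were lowest, and its part in their co-variation was not tested. Quantile normalization left the mean r of the 36 pairs at 0.80. Without C57B/L6 replicate 1 it was 0.69. Leaving out this array, and B.D(Chr5) replicate 3 above, was chosen for the correlations after the data were seen.

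**Figure D3:**
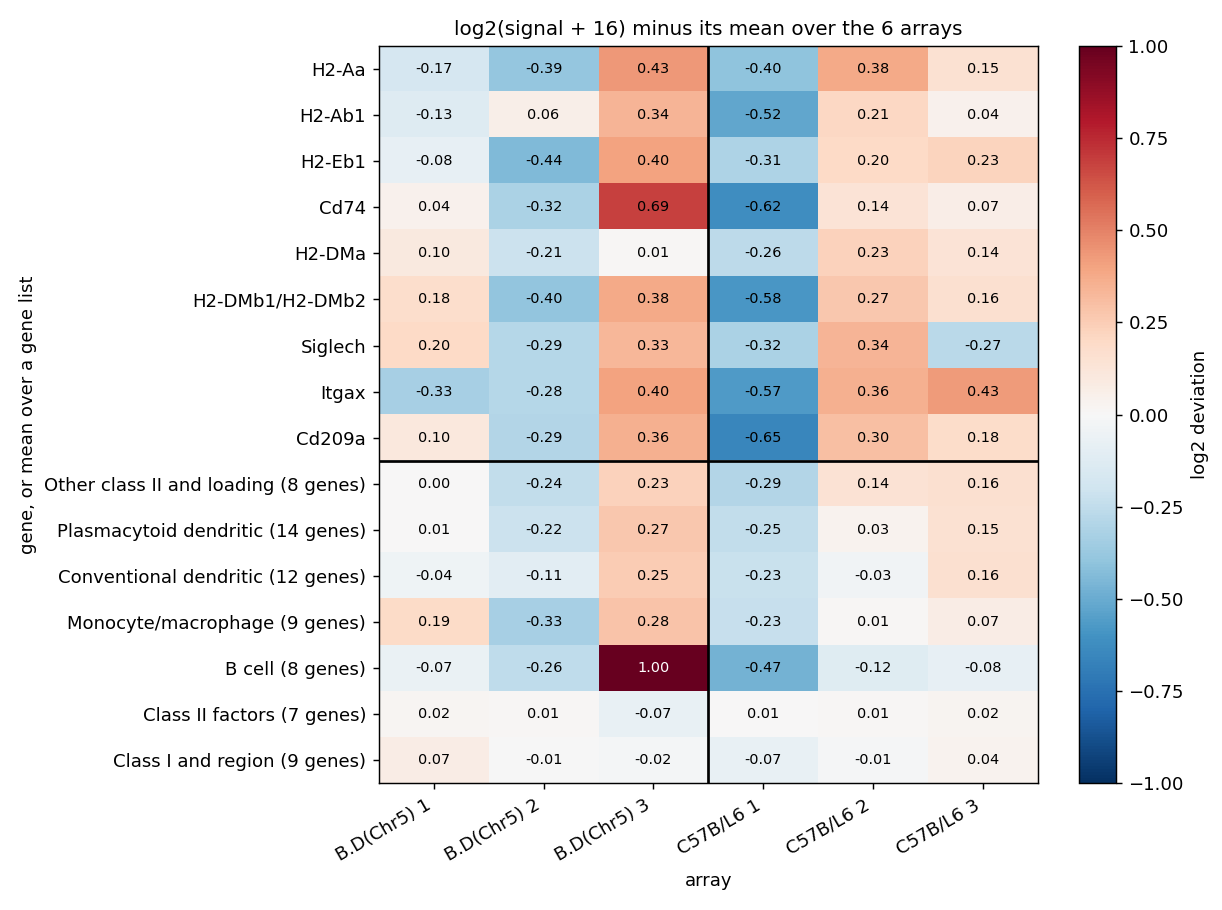
Heat map of log2(signal + 16) minus its mean over the 6 arrays, with B.D(Chr5) arrays left of C57B/L6 arrays; upper rows are the 9 tested genes, lower rows the mean over the brightest tested probe sets of 7 gene lists, and numbers give the log2 deviation. Class II and dendritic cell rows are low on B.D(Chr5) replicate 2 and C57B/L6 replicate 1 with few exceptions, the B cell row reaches 1.00 on B.D(Chr5) replicate 3, and the rows of class II factors and class I genes stay near 0.

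The 5 named genes outside the group whose values were most like the yardstick were Cds1, Rmdn3, Zfp451, Ifit3 and Plcb2, with r between 0.985 and 0.991 over 6 arrays. Ifit3, an interferon-induced gene, read 121, 105 and 191 in B.D(Chr5) and 87.2, 143 and 132 in C57B/L6, and its arrays came in the order of Cd74. Over all 22519 tested probe sets, 335 (1.49%) had an r above 0.9 to it, so high values are found among many genes with 6 arrays.

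Whether the class II genes of chromosome 17 show a step like that of congenic genes was read from the gap between strains. The gap is the lowest array of the higher strain minus the highest array of the lower strain on the log2 scale, so it is negative where strains overlap, and it was set against the wider of the ranges within a strain. For 6 called genes outside chromosome 17, described without a test because they were chosen by this contrast, the gap was between 1.36 and 15.5 times that range. AI506816, on chromosome 5, read 1630.4, 2316 and 1788 in B.D(Chr5), against 40.8, 41.9 and 32.1 in C57B/L6. Lcorl, a transcription factor gene of chromosome 5, read 376, 396 and 493 in B.D(Chr5), against 98.3, 115 and 90.0 in C57B/L6. Pus7 and Dnajc2 of chromosome 5, Mndal of chromosome 1 and Tlcd4 of chromosome 3 were likewise split by strain. The strain difference held between 91.7% and 99.8% of the sum of squares for these 6 genes.

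No class II probe set of chromosome 17 showed such a step. Of 16 tested probe sets of H2-Aa, H2-Ab1, H2-Eb1, H2-DMa, H2-DMb1 with H2-DMb2, H2-DMb2, H2-Oa and H2-Ob, 15 overlapped between the strains, with a gap from -0.93 times the range upwards. The exception was the dim H2-DMa probe set, at 0.36 times the range, which is under the lowest value of the 41 called probe sets of the array (0.74). The bright H2-DMa probe set had a gap of -0.73 times its range. Overlap is also the usual state, since the strains lay apart for only 9.38% of all tested probe sets.

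Nor were genes around them called. From H2-K1 to H2-D1 in the order of the RefSeq annotation, 87 probe sets of 57 genes were tested, 0 passed the limma threshold, and 7 had an unadjusted p under 0.05 (8.05%, against 4.72% of all). Strains did not overlap for 11 of the 87 (12.6%, against 9.38% of all tested probe sets). The highest gap among them was 1.49 times the range, on a probe set of the collagen gene Col11a2 that did not pass. By this measure alone it lay within the span of the 6 called genes (1.36 to 15.5). Its signals averaged 87.7 in B.D(Chr5) and 57.4 in C57B/L6. A probe set of Atf6b, at 0.94, lay above the lowest value of the called probe sets (0.74) and did not pass either. Of the 7, 4 belonged to the heat shock genes Hspa1a and Hspa1b, close copies whose signals cannot be assigned with certainty. The brightest of them, of Hspa1b, read 1529, 610.3 and 240.3 in B.D(Chr5), against 2380, 8150.3 and 2983 in C57B/L6, with a wide spread within each strain. Ltb, a cytokine gene of lymphoid cells, averaged 1346 ± 196 in B.D(Chr5) and 2198 ± 445 in C57B/L6 (SD, n = 3 each), a log2 change of -0.69 (limma adjusted p = 0.347). Neu1, which encodes a lysosomal sialidase, had a log2 change of 0.46 (limma adjusted p = 0.905), and the dim H2-DMa probe set was the remaining one. These genes were named after their values were seen. Over chromosome 17 as a whole, 0 of 556 tested genes were called, against 4 of 698 on chromosome 5. Calls were rare on the whole array, at 41 of 22519 tested probe sets (0.182%). The 0 calls among the 87 probe sets and on chromosome 17 are therefore near the share of all probe sets.

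**Figure D4:**
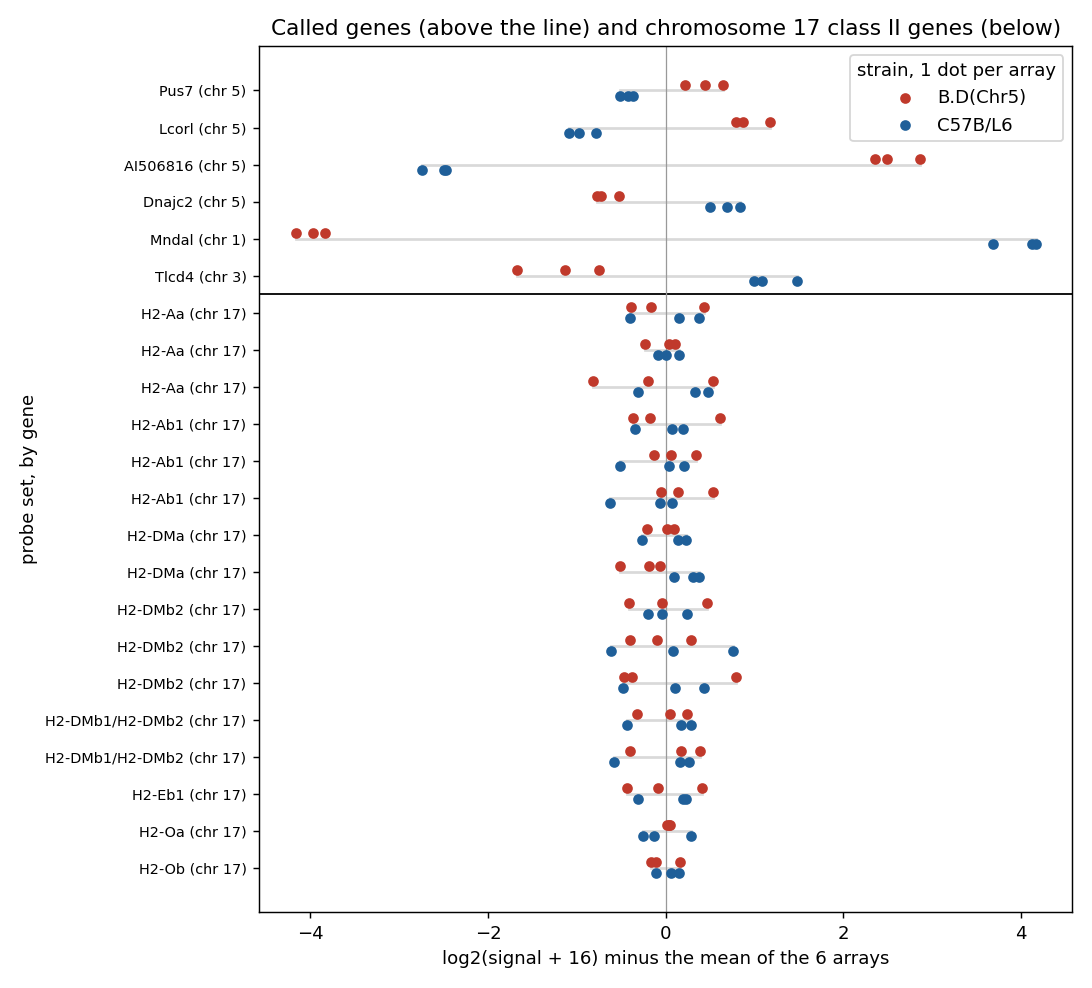
log2(signal + 16) minus its mean over the 6 arrays (horizontal axis), 1 row per probe set and 1 dot per array, for 6 called genes of chromosomes 5, 1 and 3 above the line and 16 class II probe sets of chromosome 17 below it. The strains are apart in all 6 upper rows, which were chosen by this contrast. They overlap in 15 of the 16 lower rows, the exception being the dim H2-DMa probe set. Over all tested probe sets the strains were apart for 9.38%.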

How the data were processed

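The authors deposited 1 table of probe set intensity on a linear scale from 6 mouse expression arrays, computed by MAS5 as stated per the submitters' processing notes, in a version not given in the sources used here. When the top and bottom 2% of values are trimmed, every array averages 500. Of 45101 probe sets 64 controls were left out; 34945 of the rest had 1 gene symbol in the platform annotation, 932 several and 9160 none, and symbols were updated through gene identifiers to RefSeq (GRCm38.p6) for 34741. No genome build comes with the values, so gene order and chromosomes are those of that annotation. No pair of arrays was identical (0 pairs).

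From these values log2(signal + 16) was computed, the upper 50% of probe sets by mean was tested, and strain was fitted with the lmFit and trended eBayes functions of limma 3.58.1 under R 4.3.3, two-sided, with Benjamini-Hochberg adjustment over all tested probe sets and a threshold of 0.05. The fit was tested on simulated data. Correlations and exact permutation tests were computed with numpy 2.4.6 and scipy 1.17.1. Precision is limited by having 3 arrays a strain.

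The genes and lists were chosen with earlier results of these data known. Named were all 10 genes with all their probe sets, H2-Ea, in each list the called genes or otherwise the genes of smallest p, the 5 genes most like the class II mean, and called genes of chromosomes 5, 1 and 3; others were chosen after their values were seen. Alternatives covered the pseudocount, the filter, quantile normalization, median centring, trend, a replicate block, the choice of probe sets and leaving out each array.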

Additional observations from a re-analysis of the deposited data

How the results depend on the processing

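The count of 0 called class II and dendritic cell probe sets held under every alternative run: pseudocounts of 1 and 64, no filter or the upper 25% of probe sets, quantile normalization, median centring, eBayes without trend, the replicate block, the brightest probe set of each gene, no _x_at probe sets, and each array left out. Over all tested probe sets the count of calls was 41, and was 70 with median centring, 26 without trend, 25 with the replicate block and between 22 and 74 with an array left out (74 without B.D(Chr5) replicate 2, 22 without B.D(Chr5) replicate 1, 23 without C57B/L6 replicate 2 and 24 without C57B/L6 replicate 3). The cause was not tested. By replicate number the samples showed no steady pairing: the correlation of deviations between samples of the same number was -0.11, -0.20 and 0.19 for numbers 1, 2 and 3. Between unlike numbers it was 0.29 for B.D(Chr5) replicate 2 with C57B/L6 replicate 1. It was 0.25 for B.D(Chr5) replicate 1 with C57B/L6 replicate 2, and from -0.15 to -0.04 for the rest. What these arrays share was not tested. The mean r of the 36 pairs was 0.68 when all tested probe sets of a gene were averaged, which brings in the H2-Aa and H2-DMa probe sets that follow the others loosely.

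Of 112 log2 changes of single probe sets under alternatives with all arrays, 0 changed direction; of 90 with an array left out, 22 did, and 0 passed the threshold. With an array left out, the log2 change ran from -0.32 to 0.089 for the brightest H2-Aa probe set, from -0.67 to 0.0039 for the H2-Aa probe set ending in _s_at and from -0.12 to 0.046 for the third. It ran from -0.036 to 0.33 for the brightest and from -0.24 to 0.25 for the dimmest H2-Ab1 probe set, from -0.30 to 0.12 for H2-Eb1 and from -0.00068 to 0.50 for Cd74. It ran from -0.22 to 0.028 for bright H2-DMa, from -0.16 to 0.33 and from -0.24 to 0.14 for the brighter and dimmer shared H2-DMb1 and H2-DMb2 probe sets, from -0.46 to 0.032 for Itgax and from -0.18 to 0.29 for Cd209a. These are the probe sets whose sign changed. Without a sign change, Siglech ran from 0.04 to 0.38 and the H2-Ab1 probe set at 0.41 ran from 0.20 without C57B/L6 replicate 1 to 0.55. The dim H2-DMa probe set also kept its sign. It ran from -0.61 without B.D(Chr5) replicate 2 to -0.39 without B.D(Chr5) replicate 3. The median over the tested probe sets ran from -0.18 to 0.14 with an array left out, and with all arrays it was 0.05 with no filter and 0.11 in the upper 25%, at the brightest probe set of each gene and without _x_at probe sets. Signals near background, as for Ciita and H2-Ea, allow no statement on a difference.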
